A study of Mus musculus with 8 samples.

Results

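The genes of DNA replication and S phase were followed in mouse oligodendrocyte precursor cultures cooled to 31.5 °C. The set held 32 genes of the 18193 read by the array, chosen by symbol from a list of replication genes and sorted by role into 8 groups: origin licensing, helicase activation, polymerase alpha and primase, the sliding clamp and its loader, flap removal and ligation, nucleotide supply, control of the G1 to S step, and S phase chromatin with histone mRNA. All 32 had at least 1 probe set of their own, a probe set being the group of short probes that reads 1 transcript region, and together they had 74. Of the 32 genes 31 passed the filter on dim signals, which was set on the mean over all arrays. Tyms, the gene of thymidylate synthase, did not.

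Embryos of the ICR mouse strain, aged 15 days, gave the cerebral hemispheres from which the cells were grown. Cells grown for 5 days in medium with 10% serum were passaged into serum-free medium and held for 48 hr either at 31.5 °C (4 arrays) or at 37 °C (4 arrays), and total RNA was labelled and hybridised. The labels mention 3 mice per group and do not say that the 4 replicates were separate cultures, so errors and p-values measure only the spread between these arrays, which may be technical. No sort is described, so the RNA is that of a mixed culture in which fewer dividing cells and less RNA per dividing cell cannot be told apart.

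Before S phase the origin recognition complex, CDC6 and CDT1 load the ring of MCM2 to MCM7 onto origins. CDC45 and the GINS complex then turn the ring into an active helicase, polymerase alpha with primase lays down primers, and the clamp loader places PCNA for the elongating polymerases. E2F factors and cyclin E drive the transcription of most of these genes and entry into S phase. Oligodendrocyte precursors are among the dividing cells of the developing forebrain, and they leave the cell cycle as they become oligodendrocytes.

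Of the replication genes tested, 3 passed the test and 28 did not. Chaf1b, a subunit of the chromatin assembly factor that deposits histones behind the fork, rose 1.63-fold at 31.5 °C. Rfc3, a subunit of the clamp loader, rose 1.36-fold. Pola1, the catalytic subunit of polymerase alpha, fell by 0.64 on the log2 scale. All 8 origin licensing genes were among those that did not pass. The test was a moderated linear model (limma) across 11525 genes with Benjamini-Hochberg adjustment at a threshold of 0.05. It called 15.4% of all genes tested, 7.64% higher and 7.77% lower at 31.5 °C. Of the 31 members tested 9.68% were called, 2 higher and 1 lower. This fit did not pair the arrays. With the replicate number as a block 4 members were called higher and 2 lower, or 19.4%, against 30.8% of all genes. A positive log2 change, printed ± SE, means a higher level at 31.5 °C. Signals are array fluorescence scaled to a common trimmed mean, with SD over the 4 arrays of a temperature.

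**Figure D1:**
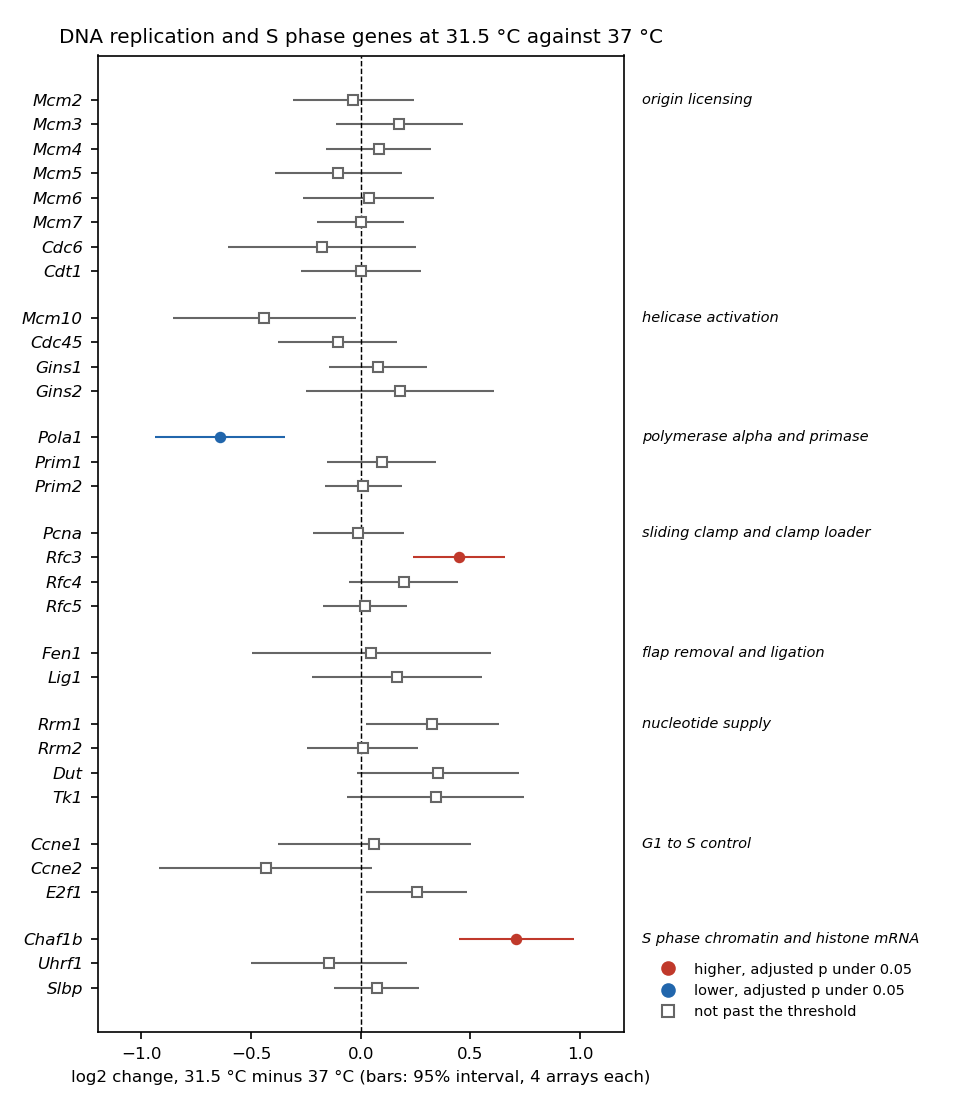
Log2 change between 31.5 °C and 37 °C for the 31 members tested, in order of their roles, with 95% intervals from 4 arrays at each temperature. Filled points passed the test (Chaf1b and Rfc3 higher, Pola1 lower), and the 28 open squares did not.

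The median change of the 31 members was 0.049 on the log2 scale, against -0.0017 over all genes tested. The median size of their changes, sign aside, was 0.11, against 0.18 over all genes. Above 0 lay 22 members and below 0 lay 9, where of all genes tested 5732 lay above and 5793 below. The 4 arrays at 31.5 °C all lay on 1 side of the 4 at 37 °C for 4 members (3 higher, 1 lower), where 22.2% of all genes did so. The difference within all 4 pairs of the same replicate number was upward for 9 members and downward for 2. Over all genes these shares were 25.3% upward and 25.1% downward, 50.4% in all. A missed threshold does not show that a level did not differ, and the 95% intervals give what the arrays allow. Of the 28 members that did not pass, all had an interval inside a 2-fold difference either way, and 20 had one inside 1.5-fold. These intervals are those of the probe set that stands for each gene. The second probe set of Dut, a gene among the 28, fell by 0.84 on the log2 scale, as described below.

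Promoters of the called members that hold a match to the E2F motif or to the CCAAT box are shown here, since E2F factors are the known common regulators of the set. The E2F motif was searched as 4 words, TTTCCCGC, TTTGGCGC, TTTCGCGC and TTTGCCGC, and the CCAAT box as CCAAT, on both strands. The E2F words can overlap each other on opposite strands, as they do in the promoter of Mcm5. Windows run from 250 bases before to 50 bases after an annotated start, from RefSeq on GRCm38.p6, and are printed 5′ to 3′ on the gene's strand with matches in capitals. Rfc3 lies on the minus strand of chromosome 5 (chr5:151651159-151651458) and has 2 E2F matches and 1 CCAAT match. Pola1 lies on the minus strand of chromosome X (chrX:93632106-93632405) and has 1 match of each.
Rfc3: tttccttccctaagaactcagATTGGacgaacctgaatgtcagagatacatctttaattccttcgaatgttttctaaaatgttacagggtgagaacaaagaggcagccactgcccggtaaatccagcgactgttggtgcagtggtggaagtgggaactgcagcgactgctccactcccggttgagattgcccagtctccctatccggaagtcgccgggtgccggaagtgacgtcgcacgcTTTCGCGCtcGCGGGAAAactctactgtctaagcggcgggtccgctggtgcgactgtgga
Pola1: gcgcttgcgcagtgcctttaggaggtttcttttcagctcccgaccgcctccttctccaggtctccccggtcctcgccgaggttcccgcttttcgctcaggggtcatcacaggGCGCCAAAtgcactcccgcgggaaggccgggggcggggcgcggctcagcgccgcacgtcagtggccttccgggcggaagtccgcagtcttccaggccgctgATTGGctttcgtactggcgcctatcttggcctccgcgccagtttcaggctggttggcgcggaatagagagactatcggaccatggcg

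The window of Chaf1b has no match to either motif. A promoter window was found for 27 of the 32 members. An E2F word was present for 10 of them, or 37%, against 2.6% of the 27025 genes with a window and 2.26% of all 32851 windows. The 10 were Mcm3, Mcm5, Mcm6, Mcm7, Cdc6, Cdt1, Pola1, Rfc3, Lig1 and Uhrf1, so 6 of the 8 origin licensing genes are among them. Of that group Mcm4 had no window and was not searched, and Mcm2 had a window without an E2F word. The CCAAT box was present for 15 of the 27, or 55.6%, against 41.1% of all genes with a window. A match describes the letters of the window and is not evidence of binding. The 10 members with an E2F word include 1 that rose, 1 that fell and 8 that did not pass.

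None of the origin licensing genes passed. Mcm7, a subunit of the MCM ring, had a signal of 2024, 2393, 2362 and 2162 at 31.5 °C (replicates 1 to 4), against 2057, 2350, 2339 and 2187 at 37 °C. The temperatures overlapped almost completely, with means of 2235 ± 174 and 2233 ± 139 and a log2 change of 0.000084 ± 0.088 (adjusted p = 1.0; 95% interval -0.20 to 0.20). The remaining ring subunits, Mcm2 to Mcm6, had log2 changes between -0.10 for Mcm5 and 0.18 for Mcm3. Cdt1, the loading factor, was at 602 ± 66.7 at 31.5 °C and 603 ± 84.0 at 37 °C. Cdc6, the second loading factor, had the widest interval of the group (-0.61 to 0.25 around a log2 change of -0.18 ± 0.19). Of the 8 genes 5 were above 0, with a median of 0.0014. With the replicate number as a block 0 of the 8 passed.

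Several of these genes were read more than once. Mcm7 was read by 4 probe sets past the filter, whose log2 changes all lay within 0.080 of each other, and Mcm5 by 2 that differed by 0.020. Mcm3 had 4, spread over 0.26 on the log2 scale, and none of them passed the test over probe sets, which called 13.2% of all probe sets past the filter.

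None of the 4 helicase activation genes passed without pairing. Mcm10, a factor that helps start the loaded helicase, had 72.8, 58.3, 93.6 and 108 at 31.5 °C. It had 106, 98.9, 109 and 127 at 37 °C. Each 31.5 °C array lay below the 37 °C array of the same number, while the 2 groups overlapped. The log2 change of -0.44 ± 0.18 had adjusted p = 0.141, and adjusted p = 0.0262 with the replicate number as a block. The blocked call ended without replicate 1 (-0.41, adjusted p = 0.0890) or replicate 2 (-0.33, adjusted p = 0.0700), and Mcm10 passed in 3 of 22 alternatives. Cdc45, which joins the ring in the active helicase, had -0.11 ± 0.12, Gins1 0.079 ± 0.099 and Gins2 0.18 ± 0.19, with overlapping groups in each case.

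Over all genes, arrays of 1 replicate number deviated together from their group means (the correlations are given with the processing). Over the 31 members alone these correlations were 0.34, 0.35, 0.54 and 0.54 for replicates 1 to 4, and arrays of different numbers reached 0.43, so that replicates 1 and 2 did not stand out for this set. With that number as a block, 30.8% of all genes were called, 15.0% higher and 15.8% lower at 31.5 °C. Among the members it called 6, with Mcm10 and Pola1 lower and Chaf1b, Rfc3, Rrm1 and Dut higher at 31.5 °C, which is 19.4% of those tested. Dut counts here by its brighter probe set only, and its second goes the other way. Without Dut 5 of 30 were called, or 16.7%.

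Polymerase alpha and primase form 1 enzyme, and of its 4 subunits, Pola1, Pola2, Prim1 and Prim2, Pola1 fell and the other 3 did not pass. Pola1 had 102, 103, 116 and 119 at 31.5 °C, against 191, 170, 197 and 134 at 37 °C. All 4 arrays at 31.5 °C were below all 4 at 37 °C, with replicate 4 showing the smallest gap. The means were 110 ± 8.61 and 173 ± 28.7, a log2 change of -0.64 ± 0.13 (adjusted p = 0.0151; 95% interval -0.94 to -0.34). Within replicates 1 to 4 the difference was -0.90, -0.73, -0.76 and -0.17. Prim1 and Prim2, the primase subunits, had log2 changes of 0.095 ± 0.11 and 0.013 ± 0.078 (adjusted p = 0.607 and 0.935). Pola2, the accessory subunit and not among the 32, had 0.19 ± 0.22 (adjusted p = 0.595), with a difference of 0.94 within replicate 4. The difference between the subunits itself was not tested. The call of Pola1 ended when arrays were scaled to a common median (-0.55, adjusted p = 0.0901), and in the blocked fit without replicate 1 (-0.55, adjusted p = 0.0510) or replicate 2 (-0.61, adjusted p = 0.0548). A second probe set of Pola1 was at the floor on all 8 arrays, and averaging it with the first gave -0.32.

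**Figure D2:**
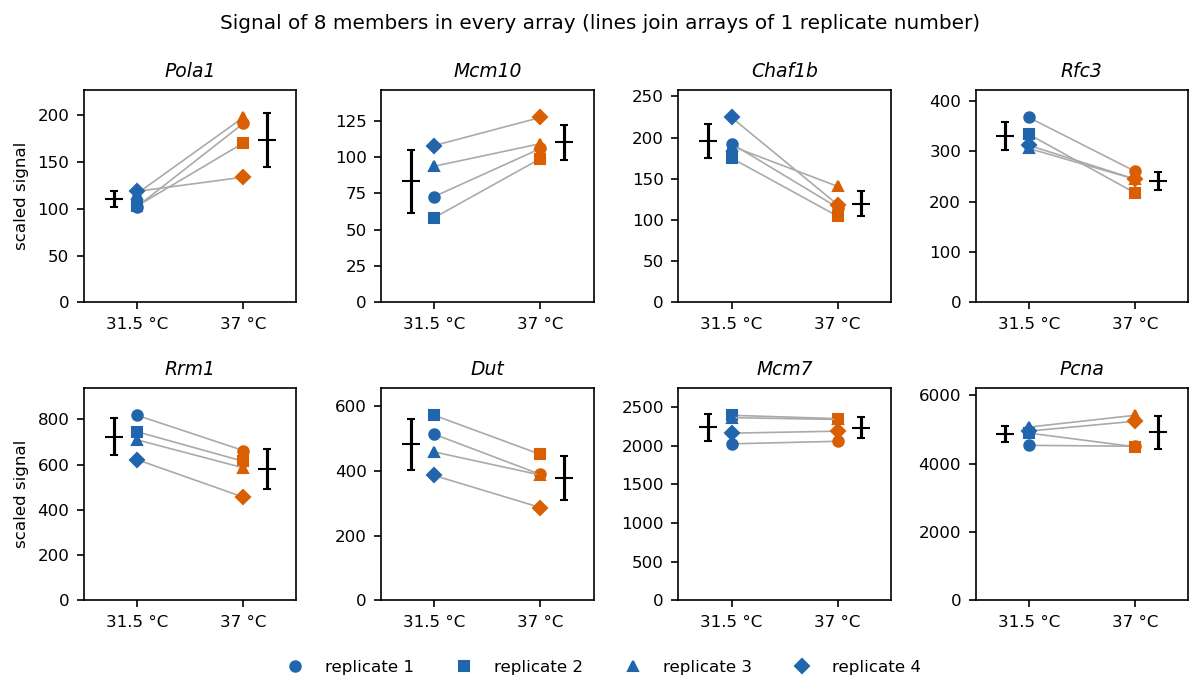
Scaled signal of 8 members in every array at 31.5 °C and 37 °C, with grey lines joining arrays of the same replicate number and black marks for mean and SD (n = 4). Pola1 lies lower and Chaf1b and Rfc3 lie higher at 31.5 °C without overlap, Mcm10, Rrm1 and Dut (its brighter probe set) shift within every pair but overlap, and Mcm7 and Pcna overlap.

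The sliding clamp did not pass, and of its 5 loader subunits 1 rose. Pcna, the ring that holds polymerases on DNA, had 4537, 4897, 5071 and 4955 at 31.5 °C, against 4511, 4495, 5417 and 5243 at 37 °C. The groups overlapped, and the 95% interval of the log2 change ran from -0.22 to 0.20 around -0.011 ± 0.091 (adjusted p = 0.952). Rfc3 had 367, 334, 305 and 312 at 31.5 °C, against 260, 217, 244 and 245 at 37 °C. Every 31.5 °C value was above every 37 °C value. The means were 329 ± 27.7 and 242 ± 17.9, a log2 change of 0.45 ± 0.092 (adjusted p = 0.0160; 95% interval 0.24 to 0.66).

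A second probe set of Rfc3 gave 0.60 ± 0.097 (adjusted p = 0.00672 over all probe sets past the filter), also with no overlap. With scaling to a common median the first had adjusted p = 0.0611, the 1 alternative of 24 in which its call ended. Rfc4, a further loader subunit, had 0.20 ± 0.11 (adjusted p = 0.262), and its second probe set, at 0.28 ± 0.083, had no overlap between temperatures but adjusted p = 0.0588. Rfc5 had 0.019 ± 0.084. The remaining loader subunits, which are not among the 32, were Rfc1 and Rfc2, named like Pola2 after their values were seen, to complete the complexes. Rfc1, the large subunit, averaged 290 ± 35.7 at 31.5 °C, against 357 ± 40.6 at 37 °C, lower without overlap (-0.30 ± 0.12, adjusted p = 0.127, and 0.0293 with the block). Rfc2 had 0.060 ± 0.11 (adjusted p = 0.765).

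The genes of flap removal and ligation, which join Okazaki fragments, were among the 26 of 31 members that varied more between replicate numbers than between temperatures. Of all genes 61.6% did so, and with more replicate numbers than temperatures most genes would do so without any effect of either. Fen1, the flap endonuclease, had 297, 276, 361 and 438 at 31.5 °C on the probe set that represents it. At 37 °C that probe set had 260, 295, 275 and 537, and replicate 4 was high at both temperatures. The log2 change was 0.049 ± 0.24 (adjusted p = 0.915). A second probe set of Fen1 had 330, 338, 419 and 335 at 31.5 °C, against 309, 286, 347 and 272 at 37 °C. There replicate 4 was not high and each pair was higher at 31.5 °C. Its change was 0.23 ± 0.12 (adjusted p = 0.230 over all probe sets past the filter). Lig1, the replicative DNA ligase, had 0.16 ± 0.17 (adjusted p = 0.561), with a difference of 0.71 within replicate 4 and -0.19 within replicate 3.

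Of the 4 nucleotide supply genes tested 0 passed without pairing. Their median was 0.33 with Dut read by its brighter probe set, and 0.17 with the mean of its probe sets. Rrm1, the large subunit of ribonucleotide reductase, had 817, 745, 709 and 621 at 31.5 °C, against 662, 614, 585 and 456 at 37 °C. Each array was above its 37 °C partner, by 0.30, 0.28, 0.28 and 0.45 on the log2 scale, although the groups overlapped. The log2 change was 0.33 ± 0.13, with adjusted p = 0.133, and 0.0143 with the replicate block. A second probe set of Rrm1 gave 0.34 ± 0.11. Rrm2, the small subunit of the same enzyme, averaged 1402 ± 95.3 at 31.5 °C, against 1402 ± 195 at 37 °C, a log2 change of 0.0085 ± 0.11 (adjusted p = 0.972). Its other probe sets gave -0.084 ± 0.11 and -0.18 ± 0.20, and neither passed the test over probe sets. The difference between the 2 subunits was not tested. Tk1, the salvage kinase of thymidine, had 0.34 ± 0.18, above 0 in 4 of 4 pairs (adjusted p = 0.229, and 0.0552 with the block).

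Dut, the enzyme that breaks down dUTP, gave opposite readings on its 2 probe sets. The brighter had 513, 571, 458 and 385 at 31.5 °C, against 389, 451, 387 and 286 at 37 °C. It was higher in 4 of 4 pairs, with a log2 change of 0.35 ± 0.16 (adjusted p = 0.178, and 0.0112 with the block). The dimmer had 39.1, 47.4, 52.1 and 51.6 at 31.5 °C, against 63.9, 81.6, 94.1 and 104 at 37 °C. It fell without overlap, by 0.84 on the log2 scale (SE 0.17, adjusted p = 0.0129 over all probe sets past the filter). The mean of both was below 0 (-0.24), so no direction is given for the gene.

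Tyms, which makes thymidylate, was too dim for the test on all 4 of its probe sets. The brightest had 13.4, 10.7, 22 and 15.5 at 31.5 °C, against 29.2, 26.3, 20.2 and 32 at 37 °C, with the floor at 9.80. Its groups overlapped, and 2 of the other 3 probe sets were at the floor on 5 or more of the 8 arrays. A further probe set carries the symbol of Tyms beside those of other genes and was not used.

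**Figure D3:**
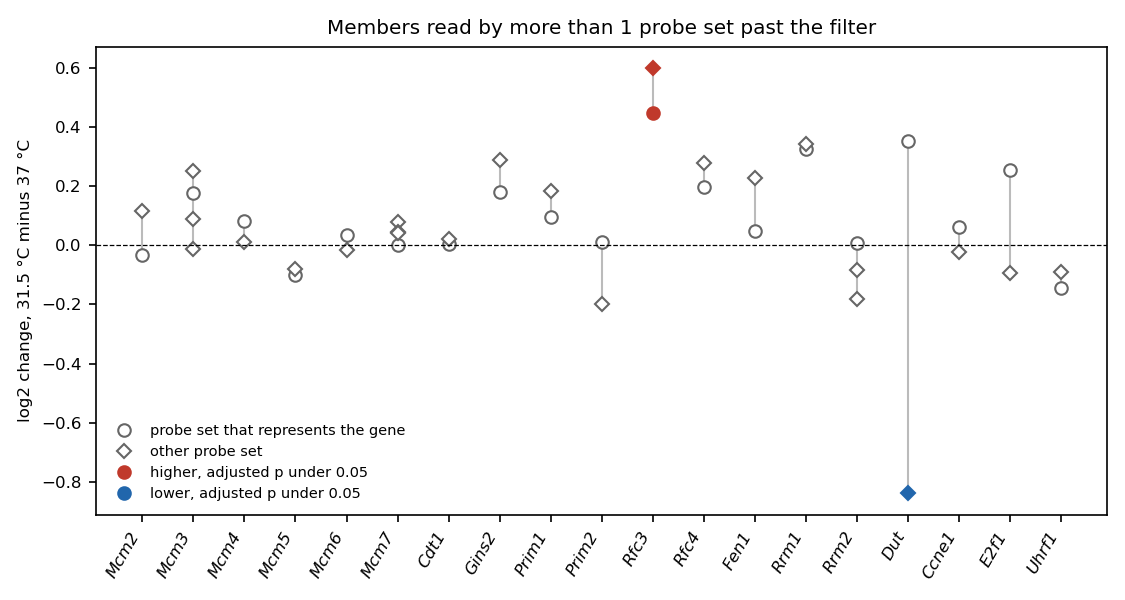
Log2 change of each probe set for the 19 members with more than 1 probe set past the filter; circles are the probe sets that represent the gene and grey lines join the probe sets of 1 gene. Rfc3 rises on both, Dut is split by 1.19 on the log2 scale, and the other 17 genes have no probe set past the threshold.

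Among the genes that control the G1 to S step, none passed. E2f1, an activating E2F factor, had 113, 113, 118 and 125 at 31.5 °C, against 103, 104, 106 and 81.5 at 37 °C. The groups did not overlap, and the log2 change was 0.25 ± 0.10 (adjusted p = 0.125, and 0.105 with the block). Its second probe set past the filter gave -0.094 ± 0.23. Ccne1, cyclin E1, had 0.062 ± 0.19, and Ccne2, cyclin E2, had -0.43 ± 0.21 (adjusted p = 0.206; 95% interval -0.92 to 0.052). The values of Ccne2 were 84.7, 60.6, 95.5 and 73.6 at 31.5 °C, against 78.5, 106, 154 and 93.4 at 37 °C, lower in 3 of 4 pairs with overlap. It passed only in the blocked fit without replicate 1 (-0.61, adjusted p = 0.0269), as did Tk1 (0.44, adjusted p = 0.0471), each 1 of 23 alternatives.

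In the group of S phase chromatin 1 of 3 genes rose, with the largest change of the 31 members. Chaf1b had 193, 175, 190 and 225 at 31.5 °C, against 115, 105, 141 and 119 at 37 °C. All 4 values at 31.5 °C were above all 4 at 37 °C. The means were 196 ± 20.8 and 120 ± 15.2, a log2 change of 0.71 ± 0.12 (adjusted p = 0.00679; 95% interval 0.45 to 0.97), and the pairs gave 0.74, 0.74, 0.43 and 0.92. Averaged with a second probe set that did not pass the filter and lay between 8.05 and 22.7, the change was 0.46 (adjusted p = 0.0838). Uhrf1, which guides maintenance methylation on new DNA, had -0.14 ± 0.16, and Slbp, which binds the stem-loop of histone mRNAs, had 0.073 ± 0.086 (adjusted p = 0.583 and 0.611).

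The arrays of replicate 4 stood apart for this set, and also for some of the other lists described below. Within replicates 1 to 4 the median difference of the 31 members was 0.0074, 0.013, -0.031 and 0.25 on the log2 scale. The same medians over all genes were 0.0085, 0.0084, -0.015 and 0.00042. Above 0 lay 16, 16, 14 and 23 members. For other replication genes the medians in replicates 1 to 4 were 0.013, 0.11, 0.0051 and 0.23. E2F factors and other S phase regulators had 0.11, 0.035, 0.040 and 0.24, and mitosis genes -0.096, -0.12, -0.24 and 0.12. Replicate 4 was not the highest for the last 2 lists. Other nucleotide genes had 0.15, 0.18, 0.17 and 0.10, and CDK inhibitors and D cyclins 0.17, 0.13, 0.0099 and -0.023. Members of replicate 4 were low at 37 °C rather than high at 31.5 °C: the median deviation from each gene's mean over the 8 arrays was 0.038 in replicate 4 at 31.5 °C and -0.20 in replicate 4 at 37 °C. That 37 °C array was also the dimmest, with a trimmed mean of 132 against 189 to 248 on the other 7, and it was scaled by 1.60. The part of its dimness in the result was not tested. With quantile scaling the members' median in replicate 4 was 0.23, beside 0.0046 for all genes, and with median scaling 0.38, beside 0.14. Without both arrays of replicate 4, a choice made after seeing these values, 2 members were higher and 1 lower, as before, and the members' median was 0.012. The change of Pola1 was then -0.80.

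**Figure D4:**
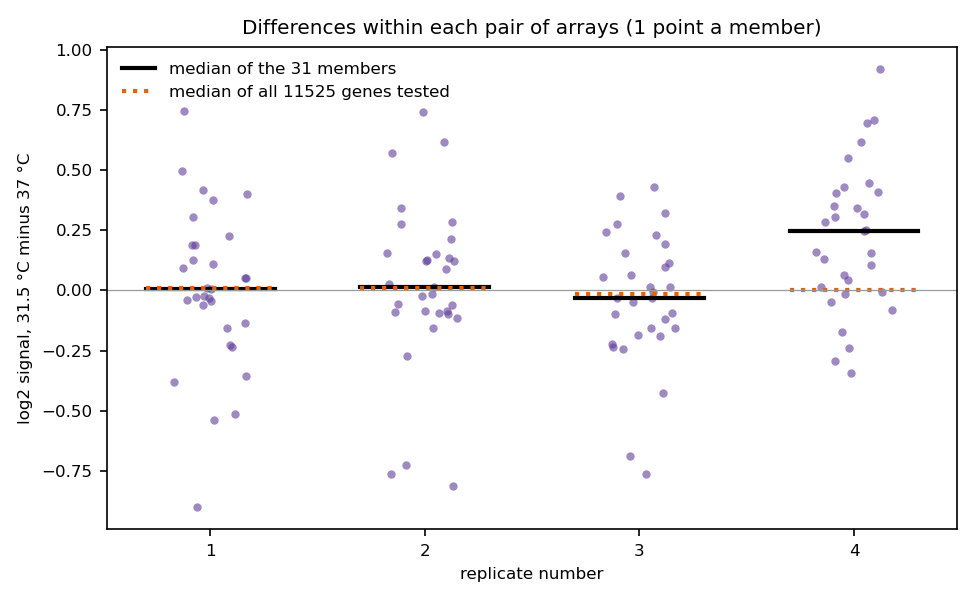
Log2 signal at 31.5 °C minus that at 37 °C within each replicate number, 1 point per member, with the median of the 31 members (black) and of all 11525 genes tested (orange dots). The medians coincide near 0 in replicates 1 to 3 and part in replicate 4, at 0.25 and 0.00042.

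The members also varied together within each temperature. For 26 of the 31 more of the sum of squares over the 8 arrays lay between replicate numbers than between temperatures, as for 61.6% of all genes. There are more replicate numbers than temperatures, so most genes would show this without any effect of either. The count and the shares are therefore read only beside those of all genes. The median share between temperatures was 10.7%, against 26.2% over all genes, and that between replicate numbers 60.2%, against 46.4%. After the mean of each temperature was removed, the median correlation over the 465 pairs of members was 0.35 across the 8 arrays, beside -0.0014 over all pairs of genes tested. For the 28 pairs of origin licensing genes it was 0.62, and all 28 were above 0. These correlations are descriptions over 8 arrays that share their scaling and, in pairs, a replicate number.

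Other genes of the replication machinery were taken from a list that does not overlap the 32. Of 43 tested, 5 rose, 4 fell and 34 did not pass, with a median of 0.070. The share called was 20.9%, against 15.4% of all genes. Gins3, a GINS subunit like Gins1 and Gins2, was at 54.9 ± 5.03 at 31.5 °C and 81.8 ± 5.54 at 37 °C, and fell by 0.58 on the log2 scale (SE 0.093, adjusted p = 0.00668). Pold2, a subunit of polymerase delta, rose to 465 ± 22.6 at 31.5 °C, against 351 ± 13.7 at 37 °C (0.40 ± 0.074, adjusted p = 0.0100). Asf1a, a histone chaperone that hands histones to the chromatin assembly factor, rose to 1386 ± 92.3, against 1029 ± 49.8 (0.43 ± 0.081, adjusted p = 0.0114). None of these 3 overlapped between temperatures.

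The remaining 6 calls are named after their values were seen. Orc2 of the origin recognition complex rose by 0.46, Tipin of the fork protection complex by 0.44 and Rnaseh2a of ribonuclease H2 by 0.37. Pold3 of polymerase delta fell by 0.51, Pole2 of polymerase epsilon by 0.37 and the topoisomerase gene Top1 by 0.33. Thus subunits of polymerase delta were called in both directions. With the block 11 rose and 5 fell, or 37.2% called, against 30.8% of all genes. Single arrays moved these counts: 2 rose without replicate 1, 2 or 3 at 31.5 °C or replicate 2 or 4 at 37 °C. Likewise 1 fell without replicate 2 at 31.5 °C or replicate 2 or 4 at 37 °C, and 2 fell without replicate 1 or 3 at either temperature.

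Other nucleotide genes gave 1 rise among 13 tested, Tk2, the mitochondrial thymidine kinase (0.46 ± 0.096, adjusted p = 0.0158). Rrm2b, the reductase subunit used outside S phase, had 0.31 ± 0.092 (adjusted p = 0.0522) and Dtymk, the thymidylate kinase, 0.26 ± 0.080 (adjusted p = 0.0614). Both passed with the block (adjusted p = 0.0152 and 0.0240), which gave 3 rises and 1 fall. Of the nucleotide list 7.69% were called without the block and 30.8% with it, against 15.4% and 30.8% of all genes. Of 18 E2F factors and other S phase regulators 1 rose, Tfdp2, a partner of E2F proteins, to 451 ± 62.7 at 31.5 °C against 286 ± 29.9 at 37 °C (0.65 ± 0.12, adjusted p = 0.00965). E2f3 had 0.29 ± 0.091 (adjusted p = 0.0606, and 0.0203 with the block) and E2f6 0.24 ± 0.10 (adjusted p = 0.158). With the block 2 rose. Of these regulators 5.56% were called without the block and 11.1% with it.

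Mitosis genes had a median of -0.077 over 29 tested, and 1 fell. This was Ube2c, which loads ubiquitin for the anaphase-promoting complex, which averaged 624 ± 21.5 at 31.5 °C, against 889 ± 149 at 37 °C (-0.49 ± 0.12, adjusted p = 0.0297). Mad2l1, a spindle checkpoint gene, had 0.35 ± 0.11 (adjusted p = 0.0641, and 0.0499 with the block), and Hmmr, a spindle-associated gene, -0.36 ± 0.12 (adjusted p = 0.0778). In replicate 3 all 29 genes were below 0 and in replicate 4 22 were above 0. Without both arrays of replicate 4 there were 3 falls, or 7 with the block, against 2 falls and 1 rise with the block on all arrays. Over all genes these fits called 1103, 2422 and 3548. On all arrays 3.45% of the mitosis genes were called without the block and 10.3% with it, against 15.4% and 30.8% of all genes. Leaving out replicate 1, 2 or 3 at either temperature gave 0 falls, replicate 4 at 31.5 °C 3 and replicate 4 at 37 °C 2. No test of the difference between the mitosis and replication lists was made.

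CDK inhibitors and D cyclins, which act before S phase, gave 1 rise and 1 fall among 11. Ccnd2, cyclin D2, rose to 3498 ± 293 at 31.5 °C against 2471 ± 171 at 37 °C (0.50 ± 0.091, adjusted p = 0.00965). Cdkn2d, an inhibitor of the cyclin D kinases, fell by 0.31 (SE 0.076, adjusted p = 0.0277). Ccnd1, cyclin D1, had 0.63 ± 0.26 (adjusted p = 0.132, and 0.00451 with the block). With the block 3 of the list rose and 1 fell. The share called was 18.2% without the block and 36.4% with it, against 15.4% and 30.8% of all genes. The call of Cdkn2d was absent without replicate 1, 2 or 3 at 31.5 °C or replicate 1, 2 or 4 at 37 °C.

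**Figure D5:**
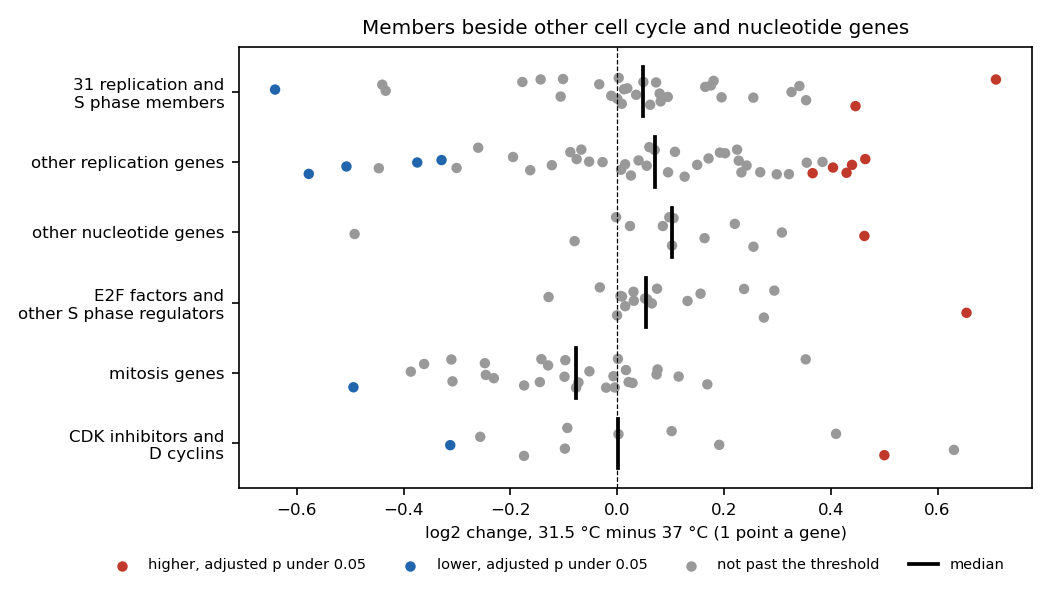
Log2 change of each gene tested in the replication and S phase set and in 5 other lists, with the median of each list as a black bar. Medians lie between -0.077 (mitosis genes) and 0.10 (other nucleotide genes), and coloured points passed the test.

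The cell types of the culture were checked by their markers. The summed signal of 9 oligodendrocyte precursor markers was 16012 to 18503 at 31.5 °C and 16460 to 19862 at 37 °C, so the labelled cell type was present at both. Of these 9 markers 2 rose and 2 fell (2 and 3 with the replicate block), 6 were below 0, and the median was -0.21. Pdgfra, the receptor that marks precursors, averaged 2469 ± 365 at 31.5 °C, against 1798 ± 168 at 37 °C, and rose (0.45 ± 0.12, adjusted p = 0.0373). Olig2, a transcription factor of the lineage, averaged 1805 ± 203, against 2097 ± 271 (-0.21 ± 0.12, adjusted p = 0.278). The summed signal of 7 markers of myelinating oligodendrocytes was 8305 to 12034 at 31.5 °C and 16708 to 20819 at 37 °C, with no overlap, and 5 of the 6 tested fell. For astrocytes (8 markers) the sums were 9053 to 16195 and 12306 to 21985, and for microglia and macrophages (9 markers) 8598 to 15708 and 11802 to 21264. For neurons (8 markers) they were 8528 to 10060 and 8633 to 11795, for fibroblasts (7 markers) 6436 to 12659 and 6678 to 10348, and for endothelium (5 markers) 86.2 to 203 and 80.3 to 195. Without the block 1 astrocyte marker fell, 1 neuron marker rose, and 0 markers of microglia, fibroblasts or endothelium passed. With it 6 of 8 astrocyte markers fell, as did 4 of 9 for microglia, 3 of 8 for neurons, 2 of 7 for fibroblasts and 1 of the 2 tested for endothelium, while 1 neuron marker rose. The block called 15.8% of all genes lower and 15.0% higher. No list had a marker at the floor on all arrays. The part of cell composition in the results above was not tested.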

How the data were processed

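Total RNA of 8 samples was read on Affymetrix mouse arrays with 45101 probe sets. The deposited values are linear signal intensity from MAS5, per the submitters' processing notes; the version, scaling target, genome build and detection calls are not given in the sources used here. The trimmed means of the deposited intensity differed between arrays by a factor of 1.89.

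Leaving out 64 controls, arrays were brought to their average trimmed mean (2% cut at each end; factors 0.848 to 1.60), values under the 25th percentile (9.80) were raised to it, and log2 was taken. Of the other probe sets 34945 carried 1 symbol, 932 several and 9160 none; only the first kind names a gene, from GEO's platform annotation. The probe set of highest mean log2 value stood for a gene, and a gene was tested where that mean reached the median of all probe sets (36.3), as 11525 did.

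Temperature was the only term in limma 3.58.1 (R 4.3.3; two-sided, Benjamini-Hochberg over all genes, threshold 0.05). The replicate numbers pair the arrays: deviations from the group means correlated at 0.54, 0.42, 0.50 and 0.61 for arrays of 1 number, against at most 0.057 for different numbers. The block is given where it changes a call. The members, lists, alternatives and the rule for named genes (all members and the 3 genes of smallest p in each other list) were chosen with earlier results of these data known. Precision is limited by having 4 arrays a temperature. The fit without the block was tested on simulated data. Those arrays were drawn independently, so the simulation says nothing about the pairing seen here. Alternatives changed the scaling (median, quantile), the floor (50th percentile, or a pseudocount of 1 in its place), the filter (70th percentile, or none), the choice of probe sets (averaged, tested singly, or without cross-hybridising types) and the model (array weights, a trend on intensity, the block, unadjusted p), or left out arrays or pairs. Plots used matplotlib 3.10.9 (Python 3.11.15).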

Additional observations from a re-analysis of the deposited data

Results flagged for a closer look

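In 62 groups of 4 arrays (31 members at 2 temperatures), 2 held an array whose distance from its nearest neighbour took up most of the range of the group; chance flags about 1 group in 20. Mcm5 had 770 in replicate 3 at 31.5 °C, against 654 to 667 in the other 3 arrays, a gap of 0.876 of the range on the log2 scale. E2f1 had 81.5 in replicate 4 at 37 °C, against 103 to 106 in the other 3, a gap of 0.904 of the range.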

How the results depend on the processing

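The main counts were 1775 genes called, 1 member lower and 2 higher, and 14 calls among the 114 other cell cycle and nucleotide genes tested. With median scaling they were 725, 0, 1 and 3. With the replicate block they were 3548, 2, 4 and 29, and with an unadjusted p 3584, 2, 4 and 35. With all probe sets tested singly 2977 were called, 2 of them lower among the members' probe sets and 25 in the other lists. The filter at the 70th percentile left 0 members lower and 1 higher, since it removed Pola1 and Chaf1b, and averaging the probe sets within a gene left 1 higher. Leaving out 1 array gave 872 to 1591 genes, with 1 member lower and 2 higher each time, and 6 to 14 calls in the other lists. Leaving out both arrays of 1 number with the block gave 2047 to 2422 genes, 0 to 2 members lower, 4 to 5 higher and 14 to 27 calls in the other lists. Without replicate 4 and without the block 1103 genes were called. The members' median change stayed between 0.012 and 0.14 over 25 alternatives. Pola1 and Rfc3 did not pass with median scaling, nor Chaf1b with averaged probe sets, and the cause was not tested. The floor and filter limit what Tyms can show. Cdc6 and Mcm10 were dim, but the probe sets that represent them passed the main filter and lay above the floor on every array.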
